A study of Homo sapiens with 18 samples.

Results

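The 6 genes described here were the aryl hydrocarbon receptor gene *AHR*, the gene of its partner *ARNT*, and 4 genes that are widely used as readouts of the receptor, *AHRR*, *TIPARP*, *CYP1A1* and *CYP1B1*. They were taken by symbol from an expression table of 40266 genes, and each symbol had 1 row. The table covered 18 RNA-seq libraries of human pancreatic ductal adenocarcinoma (PDAC) cell lines, in 6 groups of 3 libraries. Panc1, a mesenchymal-like line from a primary tumour, and Panc89, an epithelial line from a lymph node metastasis, were each profiled as the parental line, as Holoclone cells (the stem-cell-like, CSC-like, colony type) and as Paraclone cells (the non-CSC colony type). All groups were grown in RPMI medium with 10% fetal calf serum and received no treatment, so that no receptor ligand was added by design. Each Holoclone and each Paraclone group was 1 clone grown from a single cell, and its 3 libraries came from different passages. The colony type and the identity of that clone therefore cannot be told apart, and p-values measure the spread between passages.

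AHR is a transcription factor of the basic helix-loop-helix PAS family that waits in the cytoplasm, bound to chaperones, until a planar aromatic ligand such as a dioxin, a polycyclic hydrocarbon or a tryptophan metabolite reaches it. It then moves to the nucleus, pairs with ARNT and binds DNA at elements with the core GCGTG. CYP1A1 and CYP1B1, monooxygenases that oxidise such ligands, are induced there, and so are 2 brakes on the pathway. AHRR is a repressor that competes with AHR for ARNT, and TIPARP is a mono-ADP-ribosyltransferase that modifies AHR and dampens its activity. RNA levels measure neither the receptor protein nor its occupancy of DNA.

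The members lie on different chromosomes. In the GENCODE annotation of GRCh38, *AHR* spans chr7:16916359-17346152 on the plus strand and *ARNT* chr1:150809713-150876708 on the minus strand. *AHRR* spans chr5:321714-438291 and *TIPARP* chr3:156673235-156706770, both on the plus strand. *CYP1A1* spans chr15:74719542-74725536 and *CYP1B1* chr2:38066973-38109902, both on the minus strand. *AHRR* shares its exons with the readthrough gene *PDCD6-AHRR*, which was listed at 0 to 3.43 TPM, a unit that scales transcript abundance to transcript length and to the total of the library, so the split of reads between these genes makes the *AHRR* level uncertain. *TIPARP* and *CYP1B1* overlap antisense genes, *TIPARP-AS1* and *CYP1B1-AS1*, whose group means ran from 3.36 to 10.1 TPM and from 3.21 to 9.81 TPM. The libraries were made with a stranded kit.

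The promoters of the target genes are printed to show where the core letters of the receptor's elements fall near their starts. Each run is the 250 bases before an annotated start in RefSeq (GRCh38.p14), written 5′ to 3′ on the strand of the gene, with the AHR-ARNT core GCGTG, or its reverse complement CACGC, in capitals. *CYP1A1* (chr15:74725529-74725778, minus strand) held 1 match, and its first letter lay 57 bases before the start. *AHRR* (chr5:321464-321713, plus strand) held 1 match, 30 bases before the start by the same measure. *TIPARP* (chr3:156674340-156674589, plus strand) held 2 matches, both as the reverse complement, at 208 and 142 bases.
CYP1A1: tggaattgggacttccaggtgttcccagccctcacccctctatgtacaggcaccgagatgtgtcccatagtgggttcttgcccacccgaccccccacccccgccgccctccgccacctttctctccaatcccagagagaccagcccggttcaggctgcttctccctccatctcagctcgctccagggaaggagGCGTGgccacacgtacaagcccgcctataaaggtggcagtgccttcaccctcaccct
AHRR: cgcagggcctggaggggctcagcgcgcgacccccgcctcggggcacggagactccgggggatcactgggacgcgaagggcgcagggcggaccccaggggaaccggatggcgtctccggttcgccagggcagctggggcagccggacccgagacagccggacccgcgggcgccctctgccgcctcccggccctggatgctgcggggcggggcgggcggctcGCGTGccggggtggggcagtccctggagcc
TIPARP: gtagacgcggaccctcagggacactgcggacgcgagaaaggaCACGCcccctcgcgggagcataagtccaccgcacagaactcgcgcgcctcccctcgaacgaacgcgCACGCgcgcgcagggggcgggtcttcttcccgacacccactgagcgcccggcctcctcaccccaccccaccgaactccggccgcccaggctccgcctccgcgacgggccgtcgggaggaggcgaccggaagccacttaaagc
A further *AHRR* start (chr5:322360-322609) had 2 matches, at 247 and 42 bases, and 2 further *TIPARP* starts had none. The windows of *AHR* (chr7:17298402-17298651) and *ARNT* (chr1:150876600-150876849) had none. For *CYP1B1* and *ALDH3A1* no window was read. Of 35116 promoter windows of this length, 32.2% held at least 1 match and 10.2% at least 2, so a match is a description of the letters and no measure of binding.

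The depth of the libraries is unknown, since TPM keep no read counts. Between 12932 and 14199 genes reached 1 TPM in a library, and replicates of a group correlated across genes at 0.954 to 0.992 (Pearson). The carcinoma lines carried the epithelial keratin *KRT8* at 378 to 2029 TPM, with *EPCAM* at 1.28 to 311 TPM and *CDH1* at 0.671 to 107 TPM. Markers of leukocytes and endothelium (*PTPRC*, *CD3E*, *CD14*, *PECAM1*, *CDH5*) summed to at most 0.771 TPM in every Panc1 library. They summed to 59.0 to 73.3 TPM in parental Panc89, 1.37 to 2.07 TPM in Panc89 Holoclone cells and 5.79 to 11.8 TPM in Panc89 Paraclone cells. *PECAM1*, an endothelial adhesion gene, made up 60.1 TPM of the parental mean, while *PTPRC*, the pan-leukocyte gene, stayed at or below 0.956 TPM. The part of these genes in the Panc89 results was not tested.

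Levels were compared with limma on log2(TPM + 1) across 16093 genes, with Benjamini-Hochberg adjustment over all of them and a threshold of 0.05. All 6 members were among the genes tested, but *CYP1A1* passed the filter of 1 TPM in 3 libraries only through parental Panc89 and Panc89 Holoclone cells. Between Holoclone and Paraclone cells, 5 of the 6 members passed the test in Panc1 and 4 of 6 in Panc89, where 37.3% and 35.7% of all genes did. In Panc1, *AHR*, *AHRR*, *TIPARP* and *CYP1B1* were lower and *CYP1A1* higher in Holoclone cells. In Panc89, *AHR*, *TIPARP* and *CYP1A1* were higher and *CYP1B1* lower. The median log2 fold change of the members was -1.11 in Panc1 and 0.51 in Panc89, beside 0.19 and 0.09 over all genes. The test of whether the clone difference itself differed between lines passed for 5 of 6 members, against 35.1% of all genes.

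Against the parental line, 1 member was called in Panc1 Holoclone cells, where 10.9% of all genes were, and 3 were called in Panc1 Paraclone cells, where 28.6% were. In Panc89, 2 members were called in Holoclone cells (24.7% of all genes) and 3 in Paraclone cells (19.4% of all genes). Between the lines, 5 members were called in the parental cells, 6 in the Holoclone cells and 4 in the Paraclone cells, beside 66.0%, 65.8% and 60.7% of all genes. These comparisons share libraries, and none is independent of the others. Between the Paraclone cells of the lines the members' share was near that of all genes. With only 6 members, none of the counts between lines alone says anything about the members. *TIPARP* was called in 9 of the 10 comparisons, *AHR*, *CYP1A1* and *CYP1B1* in 7, *AHRR* in 6 and *ARNT* in 2.

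**Figure D1:**
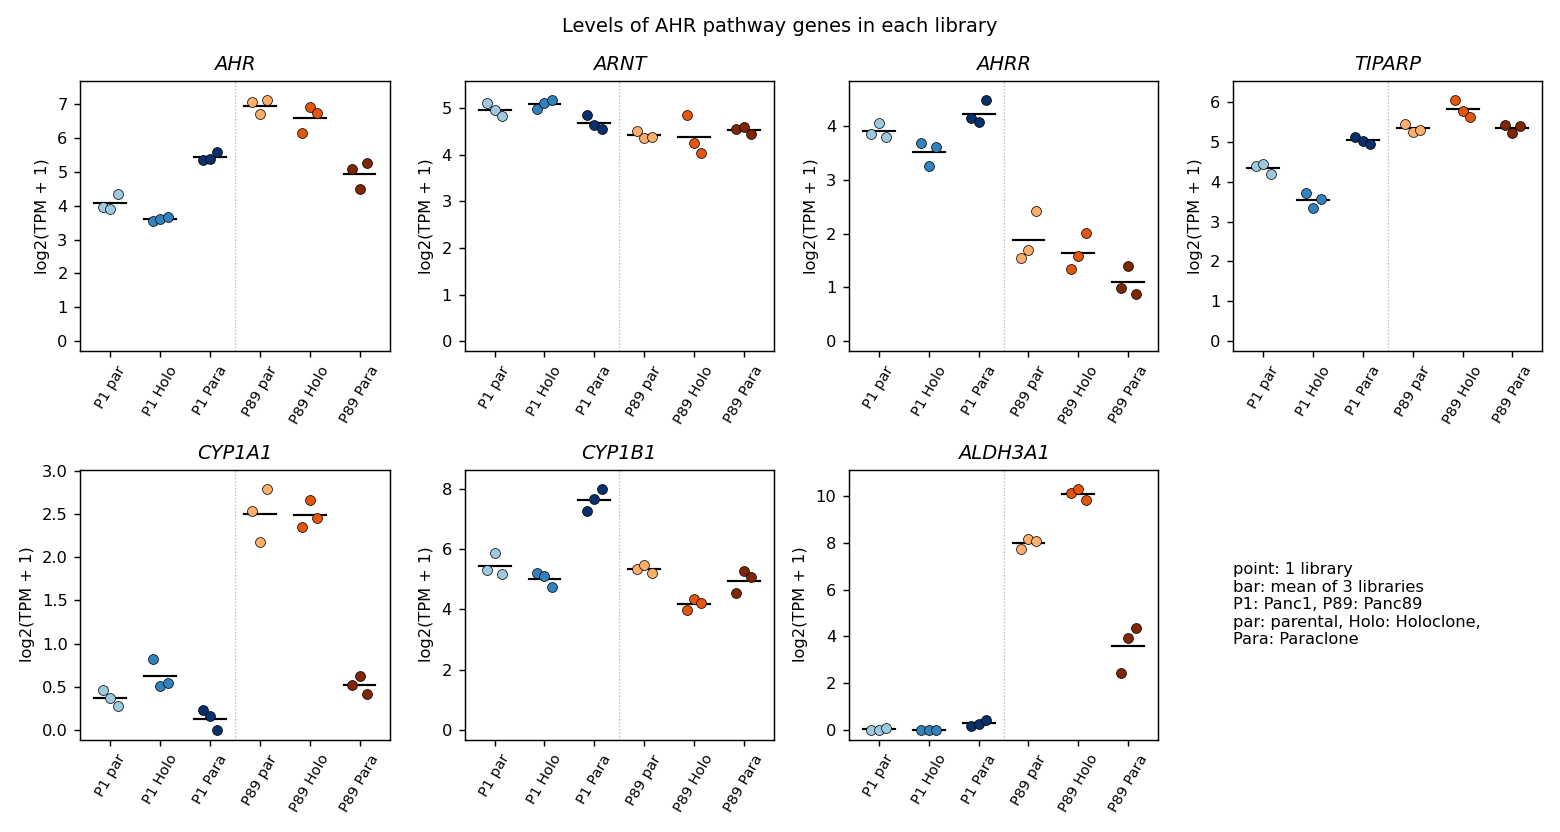
Level of each gene in every library as log2(TPM + 1), with 1 point per library and a bar at the mean of the 3 libraries of a group; P1 is Panc1, P89 is Panc89, par is parental, Holo is Holoclone and Para is Paraclone. *AHR* was lowest in Panc1 Holoclone cells (10.6 to 11.8 TPM) and highest in parental Panc89 (103 to 137 TPM), while *ALDH3A1* was listed at 0 in all Panc1 Holoclone libraries.

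*AHR*, the receptor, differed between the clones in opposite directions in the 2 lines. In Panc1 it measured 40.1, 40.7 and 46.6 TPM in the Paraclone libraries and 10.6, 11.2 and 11.8 TPM in the Holoclone libraries. The parental Panc1 libraries lay at 14.0, 14.6 and 19.3 TPM. Every Paraclone library was above every other Panc1 library, and parental and Holoclone cells were separated by a narrow gap. The log2 fold change of *AHR* from Paraclone to Holoclone cells was -1.83 (SE 0.207, adjusted p = 5.85e-06), with mean TPM 3.79 times higher in Paraclone cells. Paraclone cells exceeded the parental line by 1.37 (adjusted p = 1.68e-04). The difference between Holoclone and parental cells did not pass the test (-0.46, 95% interval -0.90 to -0.02, adjusted p = 0.187).

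In Panc89 the order was turned. *AHR* measured 103, 133 and 137 TPM in the parental libraries, 70.4, 105 and 119 TPM in the Holoclone libraries and 21.7, 33.0 and 37.0 TPM in the Paraclone libraries. Parental and Holoclone libraries overlapped, and all Paraclone libraries lay below them. Holoclone cells were higher than Paraclone cells by 1.65 (SE 0.207, adjusted p = 1.68e-05), a ratio of mean TPM of 3.21, and Paraclone cells were lower than the parental line by -2.01 (adjusted p = 6.58e-06). Holoclone and parental cells were not told apart (-0.36, 95% interval -0.80 to 0.08, adjusted p = 0.237). The clone difference, taken with its sign as Holoclone minus Paraclone, exceeded that of Panc1 by 3.48 on the log2 scale (SE 0.293, adjusted p = 3.08e-07).

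Between lines, *AHR* was higher in Panc89 than in Panc1 as parental cells (log2 fold change 2.89, adjusted p = 5.88e-09, ratio of mean TPM 7.79) and as Holoclone cells (2.99, adjusted p = 3.82e-09). The Paraclone cells of the lines were closest: Panc1 Paraclone libraries were all above those of Panc89, yet the difference of -0.49 narrowly missed the threshold (adjusted p = 0.0509). It passed in 3 of the alternative analyses, among them the one without Panc89 Paraclone replicate 3 (-0.64, adjusted p = 0.0236), and its adjusted p ran up to 0.251 over all of them. The resulting order from high to low was parental Panc89 and Panc89 Holoclone, which overlapped, then Panc1 Paraclone, Panc89 Paraclone, parental Panc1 and Panc1 Holoclone.

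*ARNT*, the partner with which the receptor binds its DNA elements, varied least among the members. All 18 libraries lay between 15.3 and 34.8 TPM, and in the order of the 6 group means each group overlapped its neighbour. The Panc1 Holoclone libraries held 30.6, 33.3 and 34.8 TPM and the Panc1 Paraclone libraries 22.4, 23.7 and 27.9 TPM. These groups did not overlap, but the log2 fold change of 0.41 (95% interval 0.05 to 0.76) did not pass the test (adjusted p = 0.0659). It was past the threshold without Panc1 Paraclone replicate 1 (0.49, adjusted p = 0.0476) and in a fit of these groups alone, with adjusted p from 0.0322 to 0.522 over 14 alternatives. It fell to 0.17 (adjusted p = 0.407) with upper quartile and to 0.13 (adjusted p = 0.522) with median-of-ratios scaling.

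In Panc89 Holoclone cells *ARNT* was spread over 15.3, 17.9 and 28.0 TPM, while Paraclone cells held 20.6, 22.3 and 23.0 TPM. The groups overlapped (-0.15, 95% interval -0.50 to 0.21, adjusted p = 0.538). Replicate 1 of the Holoclone cells stood above the other libraries of its group, and without it the difference was -0.39 (adjusted p = 0.0234). Parental Panc89 was lower than parental Panc1 (-0.55, adjusted p = 0.00785). With median-of-ratios scaling the value was -0.32 (adjusted p = 0.0453), and over 14 alternatives the adjusted p ran from 0.00335 to 0.0892. The highest came from the fit with a replicate block, where a difference between lines is taken at replicate 1 (-0.43). Panc89 Holoclone cells were lower than Panc1 Holoclone cells (-0.71, adjusted p = 0.00142). For the Paraclone cells of the lines the difference was -0.15 (adjusted p = 0.440).

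*AHRR*, the repressor, was separated mainly by line. It measured 12.8 to 15.6 TPM in parental Panc1, 8.57 to 11.8 TPM in Panc1 Holoclone cells and 15.8 to 21.2 TPM in Panc1 Paraclone cells. In Panc89 it measured 1.93 to 4.35 TPM in parental cells, 1.52 to 3.05 TPM in Holoclone cells and 0.847 to 1.64 TPM in Paraclone cells. Every Panc1 library was thus above every Panc89 library, the reverse of *AHR* in parental and Holoclone cells. The log2 fold change from Panc1 to Panc89 was -2.01 in parental cells (adjusted p = 1.57e-06), -1.87 in Holoclone cells (adjusted p = 3.50e-06) and -3.14 in Paraclone cells (adjusted p = 9.67e-09), where the ratio of mean TPM reached 15.5.

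Within the lines *AHRR* moved less. In Panc1 the Holoclone libraries lay below the Paraclone libraries without overlap (-0.71, SE 0.233, adjusted p = 0.0243). This call was lost without Panc1 Holoclone replicate 2 (-0.59, adjusted p = 0.0986), without Panc1 Paraclone replicate 3 (-0.59, adjusted p = 0.101) and with a pseudocount of 0.1, and its adjusted p was 0.00415 at the lowest over 14 alternatives. In Panc89, Holoclone and Paraclone libraries overlapped (0.55, 95% interval 0.06 to 1.05, adjusted p = 0.0769). That difference passed when Panc89 Holoclone replicate 1 (0.71, adjusted p = 0.0376) or Panc89 Paraclone replicate 2 (0.71, adjusted p = 0.0348) was left out, and with the smaller pseudocount, with adjusted p up to 0.282 over the alternatives. Panc89 Paraclone cells were lower than the parental line (-0.79, adjusted p = 0.0248). This rested on few libraries, since without parental replicate 3 (4.35 TPM, the highest) the value was -0.53 (adjusted p = 0.142), without Paraclone replicate 1 it was -0.74 (adjusted p = 0.0835) and without Paraclone replicate 3 it was -0.69 (adjusted p = 0.101). The signed clone difference was larger in Panc89 than in Panc1 by 1.27 (adjusted p = 0.00723).

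Since TPM are scaled by transcript length, receptor and repressor can be set side by side within a library. The ratio of *AHR* to *AHRR* TPM was 0.898 to 1.51 in parental Panc1, 0.895 to 1.31 in Panc1 Holoclone cells and 2.20 to 2.57 in Panc1 Paraclone cells. It was 31.5 to 68.7 in parental Panc89, 34.6 to 59.2 in Panc89 Holoclone cells and 13.2 to 43.7 in Panc89 Paraclone cells. Transcripts of receptor and repressor were thus of like abundance in parental and Holoclone Panc1, and the receptor exceeded the repressor in every Panc89 library. The size of the ratio in Panc89 is uncertain, since *AHRR* was at 0.847 to 4.35 TPM there. *PDCD6-AHRR*, which shares its exons, had group means of 0.767 to 1.45 TPM in Panc89.

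*TIPARP*, the ADP-ribosyltransferase that restrains AHR, followed the receptor's order in Panc1. It measured 29.7, 31.7 and 34.0 TPM in Paraclone cells, 17.1, 19.9 and 20.8 TPM in parental cells and 9.05, 10.8 and 12.1 TPM in Holoclone cells. No group overlapped another. Holoclone cells were lower than Paraclone cells by -1.50 (SE 0.131, adjusted p = 3.76e-07, ratio of mean TPM 2.98), and lower than the parental line by -0.80 (adjusted p = 7.74e-04), the only call among the members in that comparison. Paraclone cells were higher than the parental line by 0.70 (adjusted p = 0.00103).

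In Panc89, *TIPARP* was highest in Holoclone cells, with 48.4, 53.6 and 64.8 TPM. Paraclone cells (36.0, 41.5 and 41.8 TPM) and parental cells (36.9, 38.6 and 42.8 TPM) overlapped (0.01, adjusted p = 0.976). Holoclone cells exceeded Paraclone cells by 0.47 (adjusted p = 0.0112) and parental cells by 0.48 (adjusted p = 0.0140). The former call was lost in a fit of those groups alone (adjusted p = 0.0668, the highest of 14 alternatives, the lowest being 0.00734). The latter was lost in such a fit, without parental replicate 2 (0.43, adjusted p = 0.0552) and without Holoclone replicate 1 (0.36, adjusted p = 0.0548), with 0.00955 as the lowest. The signed clone difference was larger in Panc89 than in Panc1 by 1.96 (adjusted p = 1.05e-06).

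All Panc89 libraries held more *TIPARP* than any Panc1 library, as parental cells (1.00, adjusted p = 6.10e-06), as Holoclone cells (2.27, adjusted p = 3.90e-10) and as Paraclone cells (0.31, adjusted p = 0.0492). The last of these calls was marginal. It was lost under 9 of 14 alternatives, with adjusted p from 0.0168 to 0.142. These included leaving out Panc1 Paraclone replicate 2 (0.31, adjusted p = 0.0968) or 3 (0.27, adjusted p = 0.142) and Panc89 Paraclone replicate 1 (0.28, adjusted p = 0.130) or 3 (0.28, adjusted p = 0.129). The replicate block was another (0.35, adjusted p = 0.0920), with the difference between lines taken at replicate 1.

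*CYP1A1*, the textbook induced monooxygenase, was low throughout. It was listed at 3.52, 4.79 and 5.91 TPM in parental Panc89 and at 4.09, 4.49 and 5.35 TPM in Panc89 Holoclone cells. The Panc89 Paraclone libraries were at 0.331, 0.437 and 0.540 TPM, and all other libraries were below 1 TPM. Parental and Holoclone Panc89 overlapped (-0.01, adjusted p = 0.990) and stood apart from every other library. Holoclone cells exceeded Paraclone cells by 1.97 (SE 0.158, adjusted p = 1.52e-07), a ratio of mean TPM of 10.7, and Paraclone cells were below the parental line by -1.98 (adjusted p = 4.80e-07).

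In Panc1, *CYP1A1* was listed at 0.425, 0.457 and 0.771 TPM in Holoclone cells, at 0.215, 0.293 and 0.375 TPM in parental cells and at 0, 0.117 and 0.170 TPM in Paraclone cells. Its order there was opposite to that of *AHR*, at levels below 1 TPM. The difference between Holoclone and Paraclone cells was 0.50 (adjusted p = 0.0210), with a ratio of mean TPM of 5.76. It was lost without Panc1 Holoclone replicate 1, the highest library (0.40, adjusted p = 0.0952), and without Panc1 Paraclone replicate 3, which was listed at 0 (0.43, adjusted p = 0.0807), and its lowest adjusted p over 13 alternatives was 8.90e-04. The clone difference was larger in Panc89 by 1.47 (adjusted p = 1.11e-04), which reached 0.0501 with a pseudocount of 0.1.

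Panc89 exceeded Panc1 in *CYP1A1* as parental cells (2.13, adjusted p = 8.89e-09) and as Holoclone cells (1.86, adjusted p = 4.26e-08). Between the Paraclone cells the difference was 0.39 (adjusted p = 0.0429). This call was lost under 6 of 13 alternatives, with adjusted p from 0.00131 to 0.415. Among them were the fits that left out Panc1 Paraclone replicate 2 (0.41, adjusted p = 0.0747) or 3 (0.33, adjusted p = 0.135), or else Panc89 Paraclone replicate 1 (0.39, adjusted p = 0.0825) or 2 (0.34, adjusted p = 0.113). The highest adjusted p came from the replicate block (0.23, adjusted p = 0.415), with the difference between lines taken at replicate 1.

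*CYP1B1*, the sister enzyme that also hydroxylates oestradiol, had its highest level elsewhere. Panc1 Paraclone cells held 152, 203 and 254 TPM, above all other libraries. Parental Panc1 held 35.4, 38.3 and 57.3 TPM and Panc1 Holoclone cells 25.8, 33.2 and 35.7 TPM. Holoclone cells were lower than Paraclone cells by -2.63 (SE 0.224, adjusted p = 2.87e-07), with mean TPM 6.44 times higher in Paraclone cells. Paraclone cells exceeded the parental line by 2.19 (adjusted p = 3.17e-06), while Holoclone and parental cells overlapped (-0.44, adjusted p = 0.260).

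In Panc89 the sign of the clone difference was the same, unlike that of *AHR*. *CYP1B1* measured 14.9, 17.7 and 19.4 TPM in Holoclone cells, 22.3, 32.5 and 37.4 TPM in Paraclone cells and 35.7, 40.0 and 43.9 TPM in parental cells. Holoclone libraries were below all others. They were lower than Paraclone cells by -0.77 (adjusted p = 0.0139) and lower than parental cells by -1.16 (adjusted p = 0.00128). The former call was lost without Panc89 Paraclone replicate 2 (-0.62, adjusted p = 0.0532) or 3 (-0.72, adjusted p = 0.0514) and in a fit of those groups alone (adjusted p = 0.0595), with 0.00474 as the lowest over 14 alternatives. The reduction in Holoclone cells was smaller in Panc89 than in Panc1, by 1.86 (adjusted p = 3.14e-04).

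Parental cells of the lines did not differ in *CYP1B1* by the test (-0.10, 95% interval -0.58 to 0.38, adjusted p = 0.705), and the sign turned to 0.06 and 0.13 under the 2 other scalings. Panc89 was lower as Holoclone cells (-0.82, adjusted p = 0.00436) and as Paraclone cells (-2.68, adjusted p = 4.06e-08). The balance of the 2 enzymes therefore varied widely. *CYP1B1* exceeded *CYP1A1* in every library, with a ratio of TPM of 3.62 to 3.94 in Panc89 Holoclone cells, 6.04 to 12.5 in parental Panc89 and 51.1 to 98.2 in Panc89 Paraclone cells. In Panc1 it was 46.3 to 78.0 in Holoclone cells, 102 to 196 in parental cells, and 894 and 1730 in the 2 Paraclone libraries where *CYP1A1* was above 0.

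**Figure D2:**
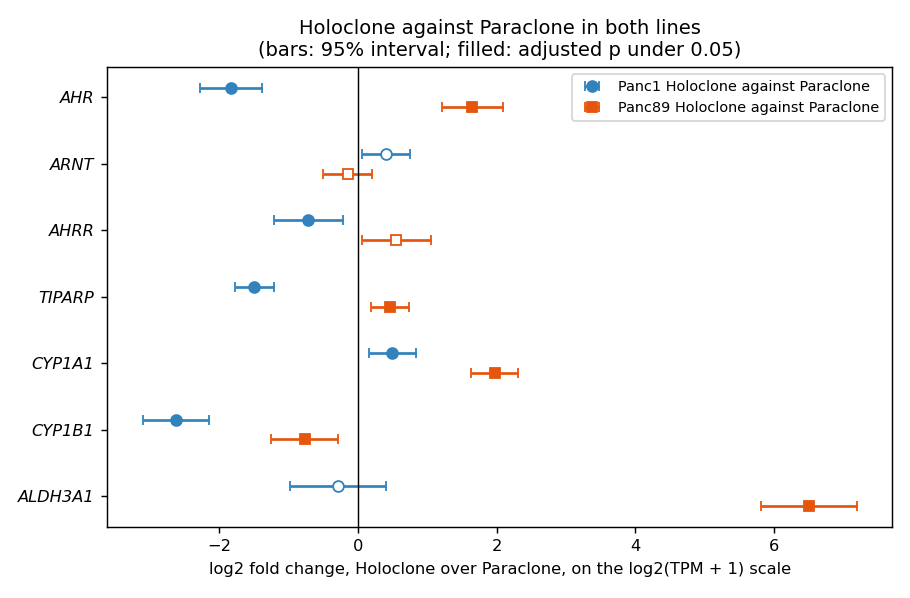
Log2 fold change of Holoclone over Paraclone cells, on the log2(TPM + 1) scale, for each gene in Panc1 (circles) and Panc89 (squares), with 95% intervals from limma and filled symbols for an adjusted p under 0.05. *AHR* and *TIPARP* lay on opposite sides of 0 in the 2 lines, at -1.83 and 1.65 and at -1.50 and 0.47, while *CYP1B1* was below 0 in both, at -2.63 and -0.77.

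*ALDH3A1*, an aldehyde dehydrogenase gene that is known as a target of AHR, was set beside the members. It was listed at 897, 1115 and 1257 TPM in Panc89 Holoclone cells, at 210, 267 and 282 TPM in parental Panc89 and at 4.44, 14.1 and 19.6 TPM in Panc89 Paraclone cells. In Panc1 it was listed at 0.140, 0.197 and 0.348 TPM in Paraclone cells, at 0.0511 TPM in 1 parental library, and at 0 in the other parental and all Holoclone libraries. In Panc89 the 3 groups did not overlap, and the order placed Holoclone cells above the parental line, by 2.10 (adjusted p = 2.01e-04).

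Within Panc89, the course of *ALDH3A1* was shared in part. *AHR* and *CYP1A1* were likewise lowest in Paraclone cells, but neither was told apart between Holoclone and parental cells. The same held for the means of *AHRR* (1.16 TPM in Paraclone cells), though its Holoclone and Paraclone libraries overlapped. *TIPARP* was likewise highest in Holoclone cells, but Paraclone and parental cells overlapped. *CYP1B1* was lowest in the Holoclone cells, where *ALDH3A1* was highest. In Panc1, *ALDH3A1* between Holoclone and Paraclone cells gave -0.29 (95% interval -0.99 to 0.40, adjusted p = 0.531), a value that passed with a pseudocount of 0.1 (-1.67, adjusted p = 0.00397) and in a fit of those groups alone (adjusted p = 0.0203), with adjusted p up to 0.725 over 14 alternatives. The Panc1 Paraclone cells, with *AHR* at 40.1 to 46.6 TPM, held at most 0.348 TPM of *ALDH3A1*, whereas the Panc89 Paraclone cells, with *AHR* at 21.7 to 37.0 TPM, held at least 4.44 TPM.

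**Figure D3:**
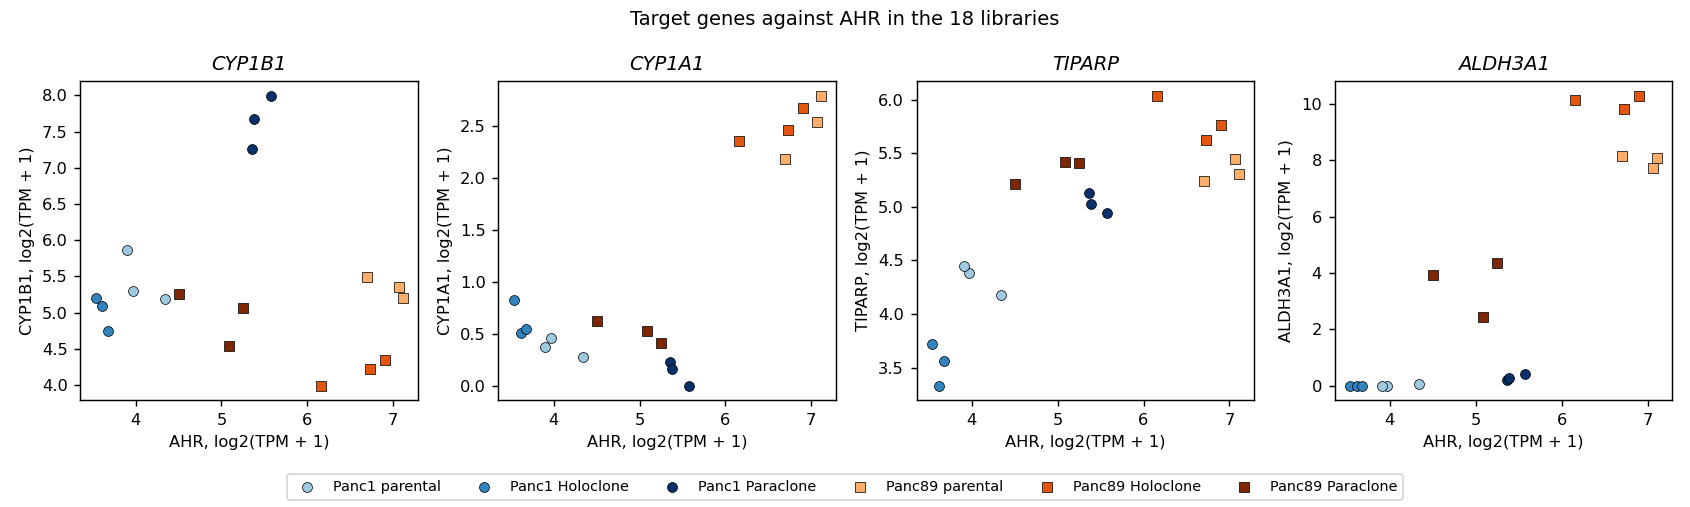
Levels of 4 target genes against *AHR* in the 18 libraries, all as log2(TPM + 1), with circles for Panc1, squares for Panc89 and shades for the groups. The 3 Panc1 Paraclone libraries with 152 to 254 TPM of *CYP1B1* held 0 to 0.170 TPM of *CYP1A1*, and the 6 parental and Holoclone Panc89 libraries, highest in *AHR*, were the highest in *CYP1A1* and *ALDH3A1*.

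As a description, over the 9 libraries of a line, which form 3 groups of 3 and so are not independent points, *AHR* correlated (Pearson, log2 scale) in Panc1 with *CYP1B1* at 0.947, with *TIPARP* at 0.897 and with *AHRR* at 0.818, and with *ALDH3A1*, listed at 0.348 TPM or less there, at 0.928. It correlated there with *CYP1A1* at -0.886 and with *ARNT* at -0.878. In Panc89, *AHR* correlated with *CYP1A1* at 0.945, with *ALDH3A1* at 0.821 and with *AHRR* at 0.713, but with *TIPARP* at 0.263 and with *CYP1B1* at -0.0352. By rank (Spearman) the value of *AHR* in Panc89 was 0.533 with *ALDH3A1*, 0.9 with *CYP1A1* and 0.733 with *AHRR*. *CYP1B1* and *TIPARP* ran in opposite directions in Panc89, at -0.872. *CYP1A1* thus had opposite signs against *AHR* in the lines, and whether the correlations differed between lines was not tested.

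The genes whose levels were most like those of each member over the 18 libraries, among 10914 genes with a mean of at least 10 TPM in some group (10915 for *CYP1A1*), were named by Pearson correlation. The 18 libraries form 6 groups and are not independent points, so these values only describe levels that step between groups alike. For *AHR*, with 23 genes above 0.9, these were *RPS3* (0.944), *ZFAND5* (0.942) and *ADGRG1* (0.933). For *ARNT*, with 48 genes above 0.9, they were *FGD5-AS1* (0.954), *RALB* (0.943) and *ADD1* (0.941). For *AHRR*, with 595 genes above 0.9, they were *LOXL1-AS1* (0.976), *SDC3* (0.974) and *ANXA6* (0.971). Many genes thus shared the pattern of *AHRR*, in which all Panc1 libraries lay above all Panc89 libraries. For *TIPARP*, with 63 genes above 0.9, they were *AGRN* (0.966), *KIAA1217* (0.960) and *KIAA0040* (0.959). For *CYP1A1*, with 76 genes above 0.9, they were *C5orf38* (0.977), *SOX2* (0.972) and *PELI2* (0.970). For *CYP1B1*, with 10 genes above 0.9, they were *SPOCK1* (0.930), *LAMA4* (0.928) and *SCUBE3* (0.917). No member was among the 3 genes most like another member, but *CYP1A1*, with group means below 10 TPM, was not among the genes searched.

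The other parts of the pathway were read from 4 lists. Of 10 genes of the receptor complex and its coactivators, which include the chaperones that hold AHR in the cytoplasm, 3 were higher in Holoclone than in Paraclone cells of Panc1 and none was lower, beside 37.3% of all genes called, with a median log2 fold change of 0.38, beside 0.19 over all genes. *CREBBP*, a histone acetyltransferase, rose by 1.16 (adjusted p = 2.99e-04), and the coactivators *NCOA1* and *NCOA2* by 0.93 and 0.69. In Panc89, 3 were higher and 1 lower, beside 35.7% of all genes called, with a median of 0.17, beside 0.09 over all genes. *CREBBP* rose by 1.45 (adjusted p = 4.09e-05) and *NCOA2* by 0.47 (adjusted p = 0.0138). The *NCOA2* call was lost without Panc89 Holoclone replicate 1 (0.36, adjusted p = 0.0559) or Paraclone replicate 3 (0.38, adjusted p = 0.0732) and in a fit of those groups alone, with adjusted p from 0.00674 to 0.130. *ARNT2*, a second partner of PAS proteins, fell by 1.91 on the log2 scale (adjusted p = 1.70e-05), from a mean of 15.1 TPM in Paraclone to 3.25 TPM in Holoclone cells.

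Of 13 further target genes, a list that counts *ALDH3A1* again, 12 were tested (*CYP1A2* was not). In Panc1, 2 were higher and 4 lower in Holoclone cells, where 37.3% of all genes were called, with a median of -0.22, beside 0.19 over all genes. *EREG* and *AREG*, which encode ligands of the epidermal growth factor receptor, were lower by -5.58 (adjusted p = 1.04e-09) and -5.14 (adjusted p = 3.37e-07). *EREG* averaged 58.6 TPM in Panc1 Paraclone cells, 2.62 TPM in parental cells and 0.223 TPM in Holoclone cells. *ABCG2*, a drug efflux pump, was lower by -1.44 (adjusted p = 0.00257). In Panc89, 8 were higher and 2 lower, where 35.7% of all genes were called, with a median of 1.26, beside 0.09 over all genes. *PTGS2*, an inducible prostaglandin synthase, averaged 79.4 TPM in Holoclone, 5.58 TPM in Paraclone and 16.9 TPM in parental cells (3.52, adjusted p = 2.75e-07). *UGT1A6*, a glucuronosyltransferase, averaged 8.27 TPM in Holoclone, 0.00824 TPM in Paraclone and 0.750 TPM in parental cells (3.19, adjusted p = 3.45e-11). *UGT1A6* reached 1 TPM only in the 3 Panc89 Holoclone libraries, and so entered the test only through the group where it was high. It shares exons with the other *UGT1A* genes, so its level is uncertain, and *UGT1A6* and *ALDH3A1* are also known to respond to NRF2. The Panc89 difference minus the Panc1 difference was above 0 for 8 of these 12 genes and below 0 for 1 by the test, which 35.1% of all genes passed, with a median of 2.52, against -0.11 over all genes. *ALDH3A1*, *UGT1A6*, *SERPINB2*, *PTGS2* and *IL1B* stayed at or below 0.348 TPM in every Panc1 library and entered the test only through Panc89. For these genes no large difference could show in Panc1, so the contrast between lines largely repeats their Panc89 difference. The Panc1 count and both medians share this limit. The Panc89 count of 8 includes *ALDH3A1*, already described above, and *UGT1A6*, which was tested only because of Panc89 Holoclone cells. That count is therefore no separate evidence beside the share of all genes.

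**Figure D4:**
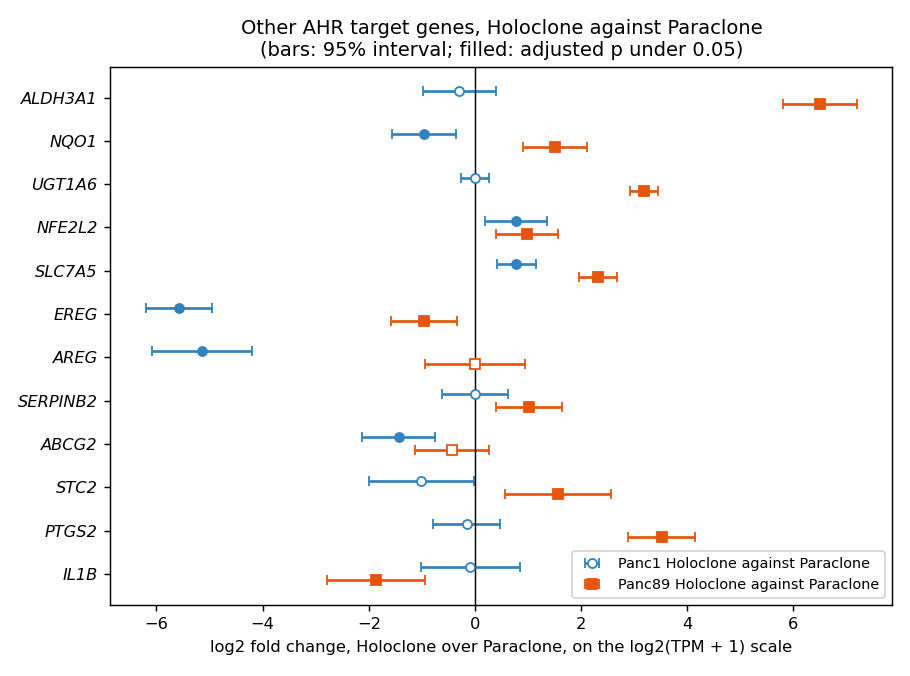
Log2 fold change of Holoclone over Paraclone cells, on the log2(TPM + 1) scale, for the 12 tested genes of the further target list, with 95% intervals from limma and filled symbols for an adjusted p under 0.05 (circles Panc1, squares Panc89). In Panc1 *EREG* and *AREG* lay farthest from 0, at -5.58 and -5.14, and in Panc89 *ALDH3A1*, *PTGS2* and *UGT1A6* did, at 6.50, 3.52 and 3.19.

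Of 7 enzymes that make or turn over ligands of AHR derived from tryptophan, most of them in the kynurenine route, 5 were tested and *IDO1* and *IDO2* were not. In Panc1, 1 was higher in Holoclone cells and 2 were lower, beside 37.3% of all genes called. *AFMID* rose by 0.87 (adjusted p = 8.15e-04), while *TDO2*, which opens the tryptophan ring, was lower by -0.94 (adjusted p = 9.76e-05) at group means of 0.211 and 1.32 TPM, and *IL4I1*, an amino acid oxidase, was lower by -0.85 (adjusted p = 2.86e-04). *TDO2* reached 1 TPM only in the 3 Panc1 Paraclone libraries, and so entered the test only through the group where it was high. In Panc89, 2 were higher and 1 was lower, beside 35.7% of all genes called. *KYNU*, the kynureninase, was lower by -1.41 (adjusted p = 8.61e-06), with 83.2 TPM in Holoclone, 229 TPM in Paraclone and 353 TPM in parental cells, whereas all Panc1 groups averaged below 1 TPM. *IL4I1* differed by 0.49 (adjusted p = 0.0160), a call lost without Panc89 Holoclone replicate 2 (0.41, adjusted p = 0.0726) or Paraclone replicate 3 (0.42, adjusted p = 0.0710), with 0.00898 as the lowest adjusted p. *AFMID* differed by 0.46 (adjusted p = 0.0470), a call lost under 11 of 14 alternatives, both scalings among them, with adjusted p from 0.0142 to 0.192. *AFMID* lost it without Panc89 Holoclone replicate 1 (0.30, adjusted p = 0.192) or 2 (0.46, adjusted p = 0.0992) and without Paraclone replicate 1 (0.42, adjusted p = 0.124), 2 (0.50, adjusted p = 0.0508) or 3 (0.45, adjusted p = 0.104).

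Of 10 relatives of AHR in the bHLH-PAS family, 8 were tested and *SIM1* and *HIF3A* were not. In Panc1, 2 were higher and 2 lower in Holoclone cells, beside 37.3% of all genes called. *SIM2*, a developmental regulator, was higher by 2.66 (adjusted p = 2.54e-09), with means of 8.91 and 0.569 TPM. *HIF1A*, the hypoxia-regulated factor that also pairs with ARNT, was lower by -1.29 (adjusted p = 5.81e-06), and *NPAS2*, a clock factor, by -1.07 (adjusted p = 0.00123). In Panc89, 1 was higher and 1 lower, beside 35.7% of all genes called. *ARNTL*, the clock factor BMAL1, was higher by 1.01 (adjusted p = 0.00504), and *NPAS2* was lower by -0.98 (adjusted p = 0.00261). The *ARNTL* call was lost in a fit of those groups alone (adjusted p = 0.0503, with 0.00165 as the lowest over 14 alternatives). *NPAS2* thus differed in the same direction in both lines, as did *CYP1B1* and, at levels below 1 TPM in Panc1, *CYP1A1* among the members.

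The scaling of the libraries moved the members along with all genes. In Panc1 the median log2 fold change of Holoclone over Paraclone cells went from 0.19 to 0.0068 when libraries were scaled to their upper quartile. On that scale *AHR* was at -2.07, *AHRR* at -0.94, *TIPARP* at -1.73, *CYP1A1* at 0.44 and *CYP1B1* at -2.87, and each passed the test. *ARNT* was at 0.17 there and did not pass (adjusted p = 0.407). No call of a member or of *ALDH3A1* changed in any comparison under either scaling.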

How the data were processed

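RNA was taken from 3 passages of each of the 6 groups, and mRNA libraries were made with a stranded kit and sequenced paired-end. According to the methods and the submitters' processing notes, transcripts were quantified with kallisto 0.46.1 against Ensembl transcripts of GRCh38 and tximport summed them to scaled TPM per gene. The authors deposited 1 table of log2 values per gene symbol, which return columns of 985339 to 988066 TPM when read as log2(TPM + 1), and this base and offset were taken from those sums. Since the deposited values are no counts, the depth is unknown and no count model or counting interval was used. Of the 40266 genes, 10923 were at 0 in every library.

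The 16093 genes that reached 1 TPM in 3 or more libraries were fitted with limma 3.58.1 in R 4.3.3 (lmFit and eBayes with a trend, a mean for each of the 6 groups, 12 residual degrees of freedom, two-sided) on log2(TPM + 1), where the 1 is the pseudocount, which understates the change of low genes. P-values were adjusted by Benjamini-Hochberg over all genes tested, and 10 comparisons were made. Intervals are 95%. The script was tested on simulated data. The members, the gene lists and the tests were chosen with earlier results of these data known. The text names the members and *ALDH3A1*, up to 3 called genes with the largest change from each further list in each line, and the 3 genes most correlated with each member. Alternatives were a pseudocount of 0.1, no filter, a filter of 5 TPM, upper quartile and median-of-ratios scaling, a fit of the groups compared alone, a replicate block, no variance trend, a log2 fold change above 1, and leaving out each library. In the fit with the replicate block, differences between lines were taken at replicate 1. *CYP1A1* did not pass the filter of 5 TPM. Positions are from GENCODE on GRCh38, and promoter windows, matched by symbol for 5 of the 6 members, are from RefSeq.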

Additional observations from a re-analysis of the deposited data

Results flagged for a closer look

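For 6 genes the difference between Holoclone and Paraclone cells itself differed between Panc89 and Panc1 in the test of that difference. On the log2(TPM + 1) scale the Panc89 difference minus the Panc1 difference was 3.48 for *AHR*, 1.27 for *AHRR*, 1.96 for *TIPARP*, 1.47 for *CYP1A1*, 1.86 for *CYP1B1* and 6.80 for *ALDH3A1*, and 35.1% of all genes tested passed it. For *AHR* and *TIPARP* the differences within the lines had opposite signs and passed the test in each. For *CYP1B1* both were below 0 and for *CYP1A1* both were above 0, so the value is a difference in size on that scale. *CYP1A1* lay below 1 TPM in Panc1, where the pseudocount of 1 understates the change. Its ratio of mean TPM, Holoclone over Paraclone, was 5.76 in Panc1 and 10.7 in Panc89. With a pseudocount of 0.1 its value was 1.34 and was not called (limma, adjusted p = 0.0501). For *AHRR* and *ALDH3A1* only the difference in 1 line passed the test. Each line contributed 1 Holoclone and 1 Paraclone clone, so lines and clones cannot be told apart. No explanation was tested.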

How the results depend on the processing

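Of the values of single members and *ALDH3A1* under the alternatives, 947 kept direction and side of the threshold, 33 lost the call, 15 gained it and 17 changed sign or reached 0, all of the last for values not called. Members called between Holoclone and Paraclone cells numbered 5 in Panc1 and 4 in Panc89. With a log2 fold change above 1 required, the counts were 3 in Panc1 and 2 in Panc89, 0 for Panc1 Holoclone and 1 for Panc89 Holoclone against parental, 3 between parental lines and 2 between Paraclone cells. A fit of the groups alone called 2 members between the Panc89 clones and 1 in Panc89 Holoclone against parental. Between Paraclone cells, 2 members were called with no filter. Leaving out a library gave 3 to 6 members between the Panc1 clones (3 without Panc1 Paraclone replicate 3) and 3 to 6 between the Panc89 clones. Against parental Panc89 it gave 1 to 2 in Holoclone cells (1 without parental replicate 2 or Holoclone replicate 1) and 2 to 3 in Paraclone cells. Between Paraclone cells it gave 2 to 4 (2 without Panc1 Paraclone replicate 2 or 3, or Panc89 Paraclone replicate 1). For the difference between lines it gave 5 to 6.

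Same-numbered replicates of a line deviated from their group means with correlations of -0.318 to 0.190 over 18 pairs, 3 of them above 0.1. The labels state no pairing and these values showed no clear sign of it. They cannot exclude it, since each group mean rests on 3 libraries and pairs across lines were not read. With a replicate block within each line, 5 and 4 members were called between the clones of Panc1 and Panc89. Differences between lines were taken at replicate 1 in that fit, not at the mean of the replicates. They are therefore no check of the main values between lines. So taken, 2 members were called between Paraclone cells, and *ARNT* between parental lines lost its call (-0.43, adjusted p = 0.0892, 0.00335 at the lowest over the alternatives). The totals above include these values.

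For *CYP1B1* between parental lines the value was 0.059 with upper quartile and 0.13 with median-of-ratios scaling, and -0.23 to 0.11 with a library left out. With a library left out, *ALDH3A1* in Panc1 Holoclone against parental reached 0 without changing sign (-0.036 to 0). Values that changed sign were *ARNT* (-0.27 to 0.14), *CYP1A1* (-0.17 to 0.14) and *AHRR* (-0.42 to 0.027) in Panc89 Holoclone against parental, *TIPARP* in Panc89 Paraclone against parental (-0.032 to 0.080) and *ARNT* between the Panc89 clones (-0.39 to 0.029).

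Over all genes, calls between the Panc89 clones fell from 5746 to 3377 in a fit of those groups alone, and calls in Panc1 Holoclone against parental fell from 1759 to 1061 without Panc1 Holoclone replicate 3. With a log2 fold change above 1, calls numbered 1860 of 6006 and 2124 of 5746 between the clones of Panc1 and Panc89, 516 of 1759 and 1279 of 4599 for Panc1 Holoclone and Paraclone against parental, 1369 of 3981 and 1184 of 3120 for the same in Panc89, 6020 of 10623, 5996 of 10583 and 5271 of 9767 between lines (parental, Holoclone, Paraclone), and 3292 of 5655 for the difference between lines. Higher calls made up 73.3% between the Panc1 clones, against 51.3% and 46.8% with upper quartile and median-of-ratios scaling. They made up 62.8% (52.5% and 49.1%) between the Panc89 clones, 25.6% (47.4% and 55.2%) for Panc1 Paraclone and 65.2% (51.3% and 51.1%) for Panc89 Holoclone against parental, 41.6% (48.3% and 51.6%) between parental lines, and 42.0% (51.5% and 51.9%) for the difference between lines. The unknown depth limits the low values, those of *CYP1A1* in Panc1 most.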
